A study of Mus musculus with 6 samples.

Results

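Aminoacyl-tRNA synthetases are the enzymes that join each amino acid to its matching tRNA, and the text below follows their 37 genes through mouse microglia given medium from dying macrophages. The genes were taken by symbol from the full deposited table of 26096 genes: a capital letter followed by ars, alone or with 1, 2, a or b, plus Eprs. Symbols ending in 2 were counted as mitochondrial (17 genes) and the others as cytosolic (20 genes). No measured value entered this choice, and all 37 genes passed the filter on low values. Microglia are the resident macrophages of the brain. The 6 samples were labelled as wild-type microglia, 3 given conditioned medium from ferroptotic bone marrow-derived macrophages (FeM CM) and 3 given that of normal ones (C CM). Ferroptosis is a way of dying in which iron drives the oxidation of membrane lipids. The sources used here do not say how ferroptosis was induced, how long the microglia were exposed, or their age and origin. Nothing in the labels says that samples of a group were separate cultures, so the p-values reflect only how much these samples varied, and that variation may be technical.

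Each library held 39624311 to 50557794 reads, as worked out from the deposited values. Of 10 microglial markers, Csf1r had 76237 ± 1842 and 58594 ± 778 normalized counts (SD, n = 3 per group) in control and ferroptotic medium. P2ry12, Fcrls, Gpr34 and C1qa, however, had 3 to 5 reads over all 6 libraries and Tmem119 had 21, so these 5 defining markers were near 0, and the 10 together summed to 81080 to 84537 in control and 62116 to 63670 in ferroptotic medium. Among markers of other cells, the summed level of 5 endothelial markers, of which 4 are in the table, was 2093 to 2363 normalized counts in control and 2236 to 2441 in ferroptotic medium. The 7 astrocyte markers, 6 of them in the table, summed to 3357 to 3652 and 4182 to 4362, and the 7 oligodendrocyte markers, 5 of them in the table, to 8821 to 9383 and 6139 to 6351. Single genes made up much of these sums, which are therefore no measure of the cells. Flt1 had group means of 1904 and 1948 normalized counts. Aldoc had 2589 and 3089, while Gfap had 28.4 and 28.1 and Aldh1l1 had 124 and 79.9. Mbp had 6608 and 4101, while Mag had 68.9 and 141. For 6 neuronal markers, 3 of them in the table, the sums were 12.7 to 33.3 and 104 to 114. For fibroblasts and mural cells (5 markers, 4 in the table) they were 11.7 to 21.9 and 39.3 to 77.5, and for T and B cells (4 markers, 2 in the table) 37.8 to 67.6 and 37.7 to 48.9. The neutrophil marker S100a8, the only 1 of 5 in the table, had 13.2 ± 3.46 and 144 ± 14.1 normalized counts. The part of other cells in the results below was not tested. In bulk RNA, fewer cells of a type and less RNA per cell cannot be told apart.

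Every cell needs a synthetase for each amino acid, since the ribosome can use only charged tRNAs. Cytosolic and mitochondrial translation mostly use separate enzymes, all encoded in the nucleus, and Gars and Kars are known to serve both compartments. Several cytosolic enzymes sit together in the multisynthetase complex, held by the scaffold proteins AIMP1, AIMP2 and EEF1E1. When an amino acid runs short, uncharged tRNA activates the kinase GCN2, encoded by Eif2ak4. GCN2 phosphorylates the initiation factor eIF2 and so favours translation of the transcription factor ATF4, which is known to bind near several synthetase genes.

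With ferroptotic medium, most cytosolic synthetase genes rose, while mitochondrial ones mostly fell or did not pass the test. The 20 cytosolic genes split into 15 higher, 3 lower and 2 that did not pass, and their median log2 fold change was 0.51. The 17 mitochondrial genes split into 1 higher, 8 lower and 8 that did not pass, and their median was -0.16. A gene was called at a limma adjusted p below 0.05, with Benjamini-Hochberg adjustment over all 15597 genes tested. Over those genes 42.5% were called, 19.7% higher and 22.8% lower, against 75.0% and 15.0% of the cytosolic and 5.88% and 47.1% of the mitochondrial genes, and the median of all genes was -0.01. Among the 9701 tested genes within the synthetases' range of mean level, 23.9% were higher and 30.3% lower. All values below called normalized counts are reads divided by a size factor per library, as the authors scaled them, and log2 fold changes are differences of group means of log2(normalized count + 1).

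**Figure D1:**
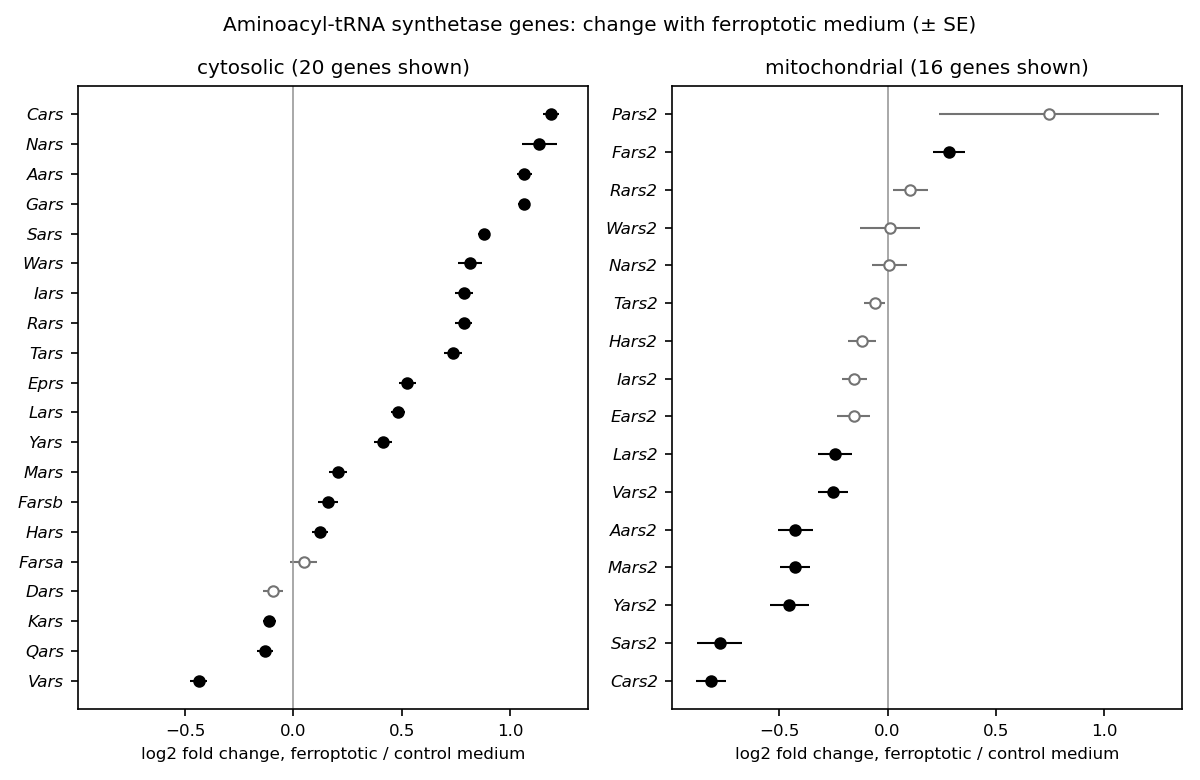
Log2 fold change of each synthetase gene (x axis; ferroptotic against control medium, bars are limma's SE, n = 3 per group) for the cytosolic and mitochondrial genes. Filled points passed an adjusted p of 0.05: 15 cytosolic genes lie right of 0 and 3 left, whereas 1 of the 16 mitochondrial genes shown lies right and 7 left.

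The summed level followed the same split. The 20 cytosolic genes together took 0.415%, 0.419% and 0.422% of all normalized counts with control medium, and 0.624%, 0.613% and 0.626% with ferroptotic medium. The 17 mitochondrial genes took 0.0523%, 0.0507% and 0.0522% and then 0.0441%, 0.0439% and 0.0449%. The groups did not overlap in either sum, and the cytosolic sum went from 7.93, 8.25 and 8.09 times the mitochondrial sum to 14.2, 13.95 and 13.9 times.

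The 4 largest rises were in Cars, Nars, Aars and Gars, the only members that rose at least 2-fold. Of all genes tested, 3.95% were called higher and rose at least 2-fold. With or without a call, 875 of 15597 genes reached that size. Cars (ENSMUSG00000010755), which charges cysteine, had 3765, 3904 and 3935 normalized counts with control and 9026, 8665 and 8781 with ferroptotic medium. Its log2 fold change was 1.19 (SE 0.04; limma adjusted p = 6.69e-08), the largest of the 37. Every ferroptotic library thus lay far above every control library, and the same held for the other 3 genes. Nars (ENSMUSG00000024587), the asparagine enzyme, had 10183, 11259 and 11927 and then 22930.4, 23496 and 26955 normalized counts, a change of 1.14 (SE 0.08; limma adjusted p = 7.27e-05). Aars (ENSMUSG00000031960), which charges alanine, had 10751, 11240.0 and 10992 and then 23572, 22252 and 23275, a change of 1.07 (SE 0.03; limma adjusted p = 7.4e-08). Gars (ENSMUSG00000029777), the glycine enzyme of both compartments, had 10404, 10519 and 10431 and then 22054, 21518 and 21930.4, a change of 1.06 (SE 0.03; limma adjusted p = 2.9e-08). Nars spread most among the 4, while the 3 libraries of a group lay within a few percent of each other for Gars.

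The authors' FPKM values, which correct for gene length, cover these 4 members and put Gars highest. Gars had 70.0 ± 0.57 FPKM in control and 144 ± 1.84 in ferroptotic medium (SD, n = 3), and Nars had 53.3 ± 3.96 and 116 ± 9.19. Aars had 24.7 ± 0.54 and 51.0 ± 1.42, and Cars 12.3 ± 0.25 and 27.7 ± 0.66. On this scale Cars, with the largest fold, had the lowest level in either medium.

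The exons of Aars share 1326 bases on the same strand with Exosc6, a subunit gene of the RNA exosome, so reads there cannot be assigned to either gene alone. Exosc6 had 1538, 1555 and 1496 normalized counts with control medium, and with ferroptotic medium 707, 3.07 and 19.9. With both genes summed, a sum chosen after the values were seen, the levels were 12289, 12795 and 12488 and then 24279, 22255 and 23295, a log2 fold change of 0.89 in place of 1.07. The summed groups still did not overlap, but the summed change was below 2-fold, unlike that of Aars alone.

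A further 5 cytosolic genes rose by 0.74 to 0.88 on the log2 scale. Sars, the serine enzyme, had 17787, 17502 and 17919 normalized counts in control and 33198, 32221 and 32409 in ferroptotic medium (0.88, SE 0.03; limma adjusted p = 6.3e-08). Wars, which charges tryptophan and is otherwise known as an interferon-induced gene, had 3394, 3658 and 3556 and then 5773, 6495 and 6422 (0.82, SE 0.05; limma adjusted p = 5.4e-06). Iars, for isoleucine, had 8756, 8991 and 9595 and then 15510.2, 15400.3 and 16289 (0.79, SE 0.04). In all 3 genes the libraries of a group lay close together and the groups were well apart. Rars, the arginine enzyme, had 11932, 11055 and 11224 and then 19613, 19024 and 20371 (0.79, SE 0.04), and Tars, the threonine enzyme, 7048, 7050.1 and 6672 and then 11492, 11139.7 and 11991 (0.74, SE 0.04). The limma adjusted p of Iars, Rars and Tars was at most 1.48e-06.

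Smaller rises were seen in 6 more. Eprs, a single protein that charges both glutamate and proline, had 18966, 18564 and 19807 and then 27664, 26349 and 28547 (0.53, SE 0.04). Lars, the leucine enzyme and a known leucine sensor upstream of mTORC1, had 8351, 8525 and 8615 and then 11558, 12103 and 12021 (0.48, SE 0.03), and Yars, for tyrosine, 5145, 5225 and 5516 and then 7146, 6841 and 7169 (0.41, SE 0.04). The limma adjusted p of these 3 was at most 5.48e-05. Mars, which charges methionine, had 7185, 7241 and 7302 and then 8874, 8086 and 8109 (0.21, SE 0.04; limma adjusted p = 0.00439). Its exons overlap those of Ddit3, the stress factor CHOP, over 68 bases on the other strand, and Ddit3 rose from 585 ± 24.1 to 1607 ± 52.9. The sources used here do not say whether counting used strand, and the share of Ddit3 reads in the Mars value was not tested.

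The remaining rises were close to the threshold. Hars, the histidine enzyme, had 8710.4, 8921 and 9099 normalized counts in control and 9308, 9812 and 9952 in ferroptotic medium (0.12, SE 0.04; limma adjusted p = 0.028). Farsb, the beta subunit of the cytosolic phenylalanine enzyme, had 6214, 6056 and 5993 and then 6341, 7105 and 6969.8 (0.16, SE 0.05; limma adjusted p = 0.0259). In both genes the highest control library lay just under the lowest ferroptotic library. Hars lost its call without control replicate 1 or 2 or ferroptotic replicate 2 or 3 (limma adjusted p 0.0698 to 0.0921), and Farsb without control replicate 2 or 3 or ferroptotic replicate 2 or 3 (0.0681 to 0.0891). Both also lost it with limma run without trend and robust fitting (limma adjusted p 0.108 and 0.0922). Farsa, the alpha subunit that pairs with Farsb, had 2551, 2992 and 2709 and then 2853, 2771 and 2887, with overlapping groups (0.05, SE 0.06; limma adjusted p = 0.584).

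**Figure D2:**
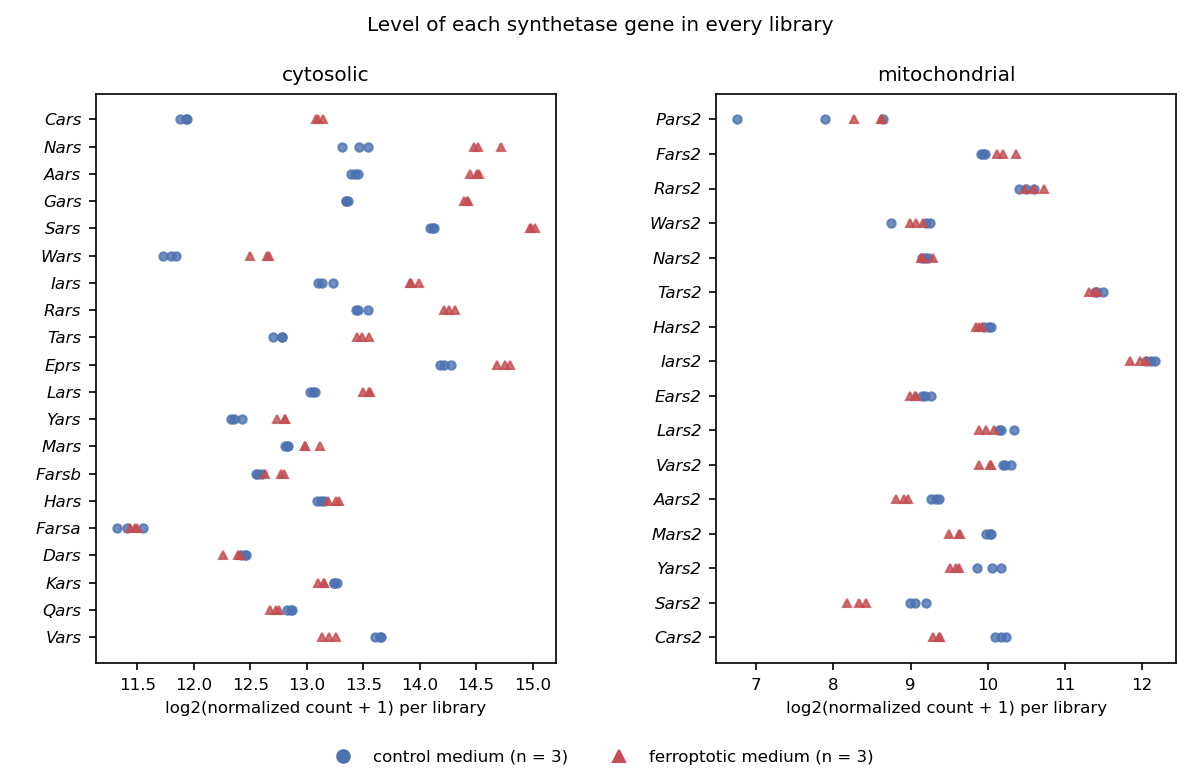
Log2(normalized count + 1) of every synthetase gene in each library (x axis, not corrected for gene length, with separate ranges in the panels); circles are the 3 control and triangles the 3 ferroptotic libraries. The ferroptotic libraries lie above all control libraries in 15 of 20 cytosolic genes and below them in 9 of the 16 mitochondrial genes shown.

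Not every cytosolic synthetase gene rose. Vars, which charges valine, went the other way: it had 12427, 12936 and 12865 normalized counts in control and 9828, 9000.2 and 9407 in ferroptotic medium, with -0.44 on the log2 scale (SE 0.04; limma adjusted p = 3.17e-05). All 3 ferroptotic libraries lay well below all 3 control libraries. Qars, the glutamine enzyme, had 7425, 7243 and 7462 and then 6900.2, 6517 and 6793 (-0.13, SE 0.04; limma adjusted p = 0.0169), and Kars, for lysine, 9651, 9673 and 9883 and then 9119, 8799.6 and 9117 (-0.11, SE 0.03; limma adjusted p = 0.0199). These 2 falls were small. Qars lost its call without control replicate 1 or 3 or ferroptotic replicate 2 (limma adjusted p 0.053 to 0.0635) and with quantile normalization (0.11). Kars lost it without control replicate 2 or 3 or ferroptotic replicate 2 (0.0508 to 0.0798). Without trend and robust fitting, Qars and Kars also lost their calls (limma adjusted p 0.0721 and 0.0908). Dars, the aspartate enzyme, had 5646, 5468 and 5609 and then 4893, 5423 and 5379 (-0.09, SE 0.05; limma adjusted p = 0.149). Its libraries did not overlap between groups, but the gap was smaller than the spread within the ferroptotic group.

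The groups were separate, in one direction or the other, in 19 of the 20 cytosolic genes: 15 with all ferroptotic libraries above and 4 below, where 25.6% and 28.2% of all tested genes had such a separation. Farsa was the exception. The counts of calls that follow stand beside 19.7% higher and 22.8% lower of all genes tested. Membership of the multisynthetase complex, a property fixed as a list, went with both directions: of its 8 enzymes Rars, Iars, Eprs, Lars and Mars rose, Qars and Kars fell and Dars did not pass, and the median log2 fold change was 0.35. Outside the complex 10 of 12 cytosolic genes rose and 1, Vars, fell (median 0.78). All 4 members that rose 2-fold are among them, with Aars taken without the Exosc6 reads. The difference between these groups of genes was not tested. By the class of the catalytic domain, a grouping chosen after the values were seen, 7 of 9 class I genes and 7 of 10 class II genes rose, with medians of 0.48 and 0.45. Eprs holds a domain of each class and stands in neither count.

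Among mitochondrial synthetases, the largest falls were in the genes for the same amino acids, cysteine and serine, whose cytosolic genes rose. Cars2 (ENSMUSG00000056228), the mitochondrial cysteine enzyme, also known for making cysteine persulfides, had 1091, 1203 and 1151 normalized counts in control and 662, 665 and 626 in ferroptotic medium. Its log2 fold change was -0.82 (SE 0.07; limma adjusted p = 2.36e-05), the largest fall of the 37. Sars2 (ENSMUSG00000070699), for serine, had 509, 529.8 and 587 and then 321, 288 and 341 (-0.78, SE 0.10; limma adjusted p = 0.000354). In both genes the highest ferroptotic library stayed far below the lowest control library. The exons of Cars2 overlap those of Naxd over 422 bases on the other strand, and Naxd had a log2 fold change of 0.20 (limma adjusted p = 0.143).

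Yars2, Mars2 and Aars2 fell by smaller amounts. Yars2, for tyrosine, had 1151, 1065 and 928 normalized counts and then 729, 767 and 791 (-0.45, SE 0.09; limma adjusted p = 0.00343). Mars2, for methionine, had 1047, 1011 and 1056 and then 791, 799 and 723 (-0.43, SE 0.07; limma adjusted p = 0.00107), and Aars2, for alanine, 612, 659 and 642 and then 479.6, 447 and 498 (-0.43, SE 0.08; limma adjusted p = 0.00283). In these 3 the groups were separate, though the control libraries of Yars2 ranged widely. Vars2, for valine, had 1193, 1169.8 and 1259 and then 1043, 945 and 1055 (-0.25, SE 0.07; limma adjusted p = 0.0174), so the cytosolic and the mitochondrial valine genes fell together. Lars2, for leucine, had 1138, 1157 and 1298 and then 1007, 944 and 1085 (-0.24, SE 0.08; limma adjusted p = 0.0376). Vars2 lost its call without control replicate 3 (limma adjusted p = 0.0654) or ferroptotic replicate 2 (0.0586). Lars2 lost it without control replicate 2 or 3 or ferroptotic replicate 1 or 2 (0.0587 to 0.128). It also lost it with quantile normalization (0.0763), with no filter on low values (0.0532) and without trend and robust fitting.

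Fars2, the mitochondrial phenylalanine enzyme, was the exception in its compartment. It had 1003, 981 and 962 normalized counts in control and 1110.2, 1315 and 1171 in ferroptotic medium, which is 0.28 on the log2 scale (SE 0.08; limma adjusted p = 0.0154). Its exons overlap those of Lyrm4, a factor of iron-sulfur cluster assembly, over 115 bases on the other strand, and Lyrm4 rose by 0.39 (SE 0.08; limma adjusted p = 0.00497). The share of Lyrm4 reads in the Fars2 value was not tested.

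The other 8 mitochondrial genes did not pass. Iars2, for isoleucine, had 4443, 4245 and 4616 and then 3694, 4026 and 4257 (-0.15, SE 0.06; limma adjusted p = 0.0665), with groups that overlapped slightly. It was called lower without ferroptotic replicate 3 (-0.20; limma adjusted p = 0.0278) and with scaling by the library total (0.029). Its exons share 2034 bases with Rab3gap2 on the other strand, which fell by 0.14 on the log2 scale (limma adjusted p = 0.0102), and the authors' deposited table gives Iars2 a false discovery rate of 0.0313. Ears2, for glutamate, had 579.8, 568 and 612 and then 534, 536 and 508 (-0.16, SE 0.08; limma adjusted p = 0.14), and Hars2, for histidine, 1032, 1055 and 987 and then 919, 942 and 971 (-0.12, SE 0.06; limma adjusted p = 0.173). Both had separate groups, with the ferroptotic libraries below. Hars and Hars2 lie head to head and share 195 exon bases on opposite strands.

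For Tars2, Nars2, Wars2 and Rars2 the groups overlapped. Tars2, the threonine enzyme, had 2770.2 ± 103 and 2658 ± 96.5 normalized counts (SD, n = 3; -0.06, SE 0.05; limma adjusted p = 0.378). Nars2, for asparagine, had 582 ± 13.6 and 586 ± 37.0 (0.01, SE 0.08), and Rars2, for arginine, 1453 ± 102 and 1563 ± 135 (0.10, SE 0.08). These genes had limma adjusted p-values of 0.341 or more. Wars2, for tryptophan, had 586, 611 and 427 in control, where replicate 3 was low, and 573, 506 and 537 in ferroptotic medium (0.01, SE 0.14; limma adjusted p = 0.964). Pars2, the proline enzyme and the lowest member per kilobase of exon, had 236, 107 and 398 and then 390.3, 308 and 397. Its control libraries spanned more than the distance between the groups, and a difference was not detectable (0.75, SE 0.51; limma adjusted p = 0.31).

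Per kilobase of exon, mitochondrial genes were the scarcer ones. With exon lengths of GENCODE M21, which may not be the annotation the authors used, control levels ran from 588 (Cars) to 3641 (Hars) normalized counts per kilobase in the cytosolic genes and from 79.9 (Pars2) to 524 (Rars2) in the mitochondrial ones. SEs lay between 0.05 and 0.14 on the log2 scale for all but Pars2, against 0.03 to 0.08 for the cytosolic genes.

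Cytosolic and mitochondrial genes of the same amino acid could be set against each other in 18 pairs, with Eprs used for both Ears2 and Pars2, and Farsa and Farsb both set against Fars2. In 14 pairs the log2 ratio of the cytosolic to the mitochondrial gene was higher in every ferroptotic library than in every control library, in 2 it was lower in every one, and in 2 the groups overlapped. No such share was worked out for pairs of other genes. Of single genes tested, 25.6% separated above and 28.2% below. The count of pairs partly restates the separations of single synthetase genes given above. The widest shift was in the cysteine pair: the ratio Cars to Cars2 was 1.79, 1.70 and 1.77 with control medium and 3.77, 3.70 and 3.81 with ferroptotic medium, a difference of 2.01 on the log2 scale. For serine the ratio Sars to Sars2 moved from 5.12, 5.04 and 4.93 to 6.69, 6.80 and 6.57, a difference of 1.65, and for alanine the ratio Aars to Aars2 differed by 1.49. These 3 pairs combine a rise of the cytosolic gene with a fall of the mitochondrial one. With 3 samples against 3, the smallest two-sided p that an exact permutation test of a single ratio can give is 0.1.

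The phenylalanine, valine and proline pairs did not follow. The ratio Vars to Vars2 went from 3.38, 3.47 and 3.35 to 3.23, 3.25 and 3.15, a difference of -0.19. The ratio Farsb to Fars2 differed by -0.12 with separate groups, and Farsa to Fars2 by -0.24 with groups that overlapped. For proline, the ratio Eprs to Pars2 differed by -0.22 with groups that overlapped, and its control libraries ran from 5.63 to 7.43. For valine both genes fell, and phenylalanine was the only amino acid whose mitochondrial gene passed as higher.

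**Figure D3:**
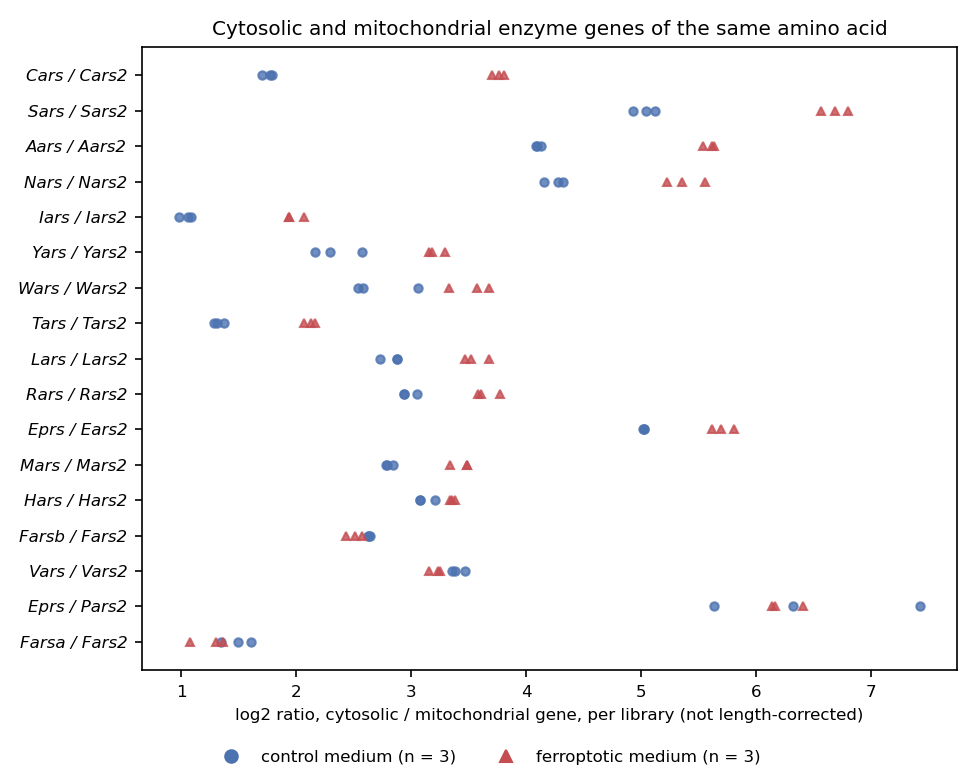
Log2 ratio of the cytosolic to the mitochondrial gene of the same amino acid in each library (x axis, not corrected for gene length); circles are the 3 control and triangles the 3 ferroptotic libraries. Ferroptotic libraries lie right of all control libraries in 13 of the 17 pairs shown, by 2.01 for Cars and Cars2, and left of them for Vars with Vars2 and for Farsb with Fars2.

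Promoter sequences were searched because the cytosolic genes moved together. RefSeq promoter windows (build GRCm38.p6, 250 bases before to 50 after the gene start) were matched for 27 members, 13 cytosolic and 14 mitochondrial, and not for 10, among them Cars, Nars, Wars, Rars, Lars, Hars, Vars, Hars2 and Pars2. The letters searched on both strands were TGATGNAA, the core of the element bound by ATF4 together with C/EBP factors, and its stricter form TGATGCAA, which is contained in it and reads TTGCATCA on the other strand. The wider form was found in 5 of the 13 cytosolic windows (38.5%), those of Aars, Gars, Iars, Tars and Yars, and in 0 of the 14 mitochondrial ones. It was found in 4.51% of all 27025 genes with a window, in 2.93% of the 9874 tested genes matched by symbol, and in 4.39% of the 2208 matched genes called higher. The stricter form was found in 4 of the 13 (30.8%) and in 1.03% of all genes. The search windows were not chosen by where these enzymes' elements are known to lie, and a match is a description, not a bound site.

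The stretches around the matches are shown 5′ to 3′ on the gene's own strand, with the matched letters in capitals, to let the shared core be seen in genes that rose.
Aars, chr8:111033698-111033749, plus strand: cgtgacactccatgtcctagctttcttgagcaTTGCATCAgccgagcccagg
Aars, chr8:111033819-111033870, plus strand: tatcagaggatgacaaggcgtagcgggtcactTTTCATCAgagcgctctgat
Gars, chr6:55037939-55037990, plus strand: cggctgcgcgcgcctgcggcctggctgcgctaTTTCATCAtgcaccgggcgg
Iars, chr13:49682105-49682156, plus strand: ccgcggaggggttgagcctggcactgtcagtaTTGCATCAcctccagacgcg
Tars, chr15:11399654-11399705, minus strand: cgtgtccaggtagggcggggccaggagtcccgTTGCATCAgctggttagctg
Yars, chr4:129189874-129189925, plus strand: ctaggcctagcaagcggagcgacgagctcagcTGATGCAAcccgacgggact
The matches of Aars (the first), Gars and Tars begin 112, 30 and 15 bases before the gene start, and those of Aars (the second), Iars and Yars begin 9, 7 and 3 bases after it. The first Aars match and those of Iars and Tars read TTGCATCA, the second Aars match and that of Gars read TTTCATCA, and Yars carries TGATGCAA. All 5 genes passed as higher. The windows of Sars, Eprs, Mars and Farsb, which also rose, and of Farsa, Dars, Kars and Qars, which did not, held no match.

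Outside the synthetases, other genes of tRNA charging moved less uniformly. Over all genes tested, 19.7% were higher and 22.8% lower, and within the synthetases' range of mean level 23.9% and 30.3%. Of the 3 scaffold proteins of the multisynthetase complex, Aimp1 rose from 1903 ± 20.7 to 2339 ± 60.5 normalized counts (SD, n = 3; 0.30, SE 0.05) and Aimp2 fell from 1730.5 ± 41.4 to 1172 ± 44.4 (-0.56, SE 0.06), while Eef1e1 had 3050.2 ± 178 and 2969 ± 154 (limma adjusted p = 0.645). Tarsl2, a second cytosolic threonine enzyme whose symbol lies outside the set, had 547, 557 and 510.0 and then 244, 233 and 257, or -1.13 on the log2 scale (SE 0.09; limma adjusted p = 1.78e-05), in the libraries in which Tars rose. Of 8 tested synthetase-like, editing and peptidyl-tRNA hydrolase genes, Tarsl2, the alanine-editing Aarsd1 (-0.66), Ptrhd1 (-0.88) and the hydrolase Ptrh2 (-0.47) fell. Of 11 mitochondrial charging and elongation partners, 4 fell (36.4%): Tsfm (-0.34), Gfm1 (-0.23), and Qrsl1 (-0.33) and Gatc (-0.23), subunits of the enzyme that makes mitochondrial glutaminyl-tRNA. Mtif2 (0.31) rose. Gatc lost its call without control replicate 2 or ferroptotic replicate 2 and Mtif2 when any library but ferroptotic replicate 1 was left out, so that 3 genes of the list passed without control replicate 2 or ferroptotic replicate 2. Mtif2 also lost its call without trend and robust fitting (limma adjusted p = 0.0829).

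Factors that deliver charged tRNA came next, again beside 19.7% higher and 22.8% lower of all genes tested. Of 6 tested elongation factor genes 4 rose (66.7%): Eef1a1, which carries charged tRNA to the ribosome, by 0.11, Eef2 by 0.18, Eef1b2 by 0.21, and Eef2k, the kinase that inhibits elongation factor 2, from 286 ± 33.3 to 742 ± 32.7 (1.38, SE 0.11). Without trend and robust fitting, Eef1a1 lost its call (limma adjusted p = 0.0855). Eef1d (-0.15; limma adjusted p = 0.0552) and Eef1g (0.01) did not pass. With quantile normalization the difference of Eef2 turned to -0.23 (limma adjusted p = 0.15) and 2 genes of the list passed. Eef1a1 says nothing there, as this method gave it an identical value in every library. The tRNA exportin Xpot rose by 0.14, near the threshold (limma adjusted p = 0.0264, and 0.05 to 0.0858 without control replicate 1 or 3 or ferroptotic replicate 2 or 3). Without trend and robust fitting, the limma adjusted p of Xpot was 0.103 and that of Nxf1 0.0601. In the same list of 6 transport factors Nxf1 (0.19) rose and Ipo5 (-0.19), Nxt1 (-0.45) and Xpo5 (-0.22) fell. Of 6 genes that make and use selenocysteine tRNA, Sephs2 (0.18) rose and Secisbp2 (-0.26) fell, 16.7% each way and near the shares over all genes.

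The genes that make tRNA were taken in 3 lists, beside the 22.8% lower and 19.7% higher of all genes tested. Among the 9701 genes within the synthetases' range of mean level, 30.3% were lower and 23.9% higher. In end processing and splicing 12 of 21 genes fell (57.1%) and 2 rose (9.52%; median -0.22 on the log2 scale). The falls included the RNase P subunits Rpp40 (-0.59), Rpp30 (-0.51) and Pop5 (-0.38), and the tRNA-end nuclease Elac1 (0.35) and Rpp38 (0.30) rose. Rpp38 lost its call without control replicate 1 or 2 or ferroptotic replicate 3 (limma adjusted p 0.0642 to 0.0714). Calls in this list numbered 14, and 7 without control replicate 1, 9 without control replicate 3 and 9 without ferroptotic replicate 1. Of 56 tested tRNA-modifying enzymes, 20 fell (35.7%) and 6 rose (10.7%; median -0.13). The cytosine methyltransferase Nsun2 (-0.44) and Nat10 (-0.39) fell, whereas Dus2 rose by 0.81 and Nsun3, which methylates the mitochondrial methionine tRNA, rose from 451 ± 87.6 to 1353 ± 41.1 (1.60, SE 0.14; limma adjusted p = 3.39e-05). Of 29 genes of RNA polymerase III and its factors, 10 fell (34.5%) and 4 rose (13.8%; median -0.11), the falls including the TFIIIC and TFIIIA genes Gtf3c5 (-0.73), Gtf3c2 (-0.49) and Gtf3a (-0.56) and the polymerase subunit Polr3b (-0.35). The 4 that rose were Brf2 (0.61), Polr3c (0.15), Polr3a (0.18) and Snapc1 (0.33). Polr3a lost its call without control replicate 1 (limma adjusted p = 0.0751) or ferroptotic replicate 2 (0.0752), and Snapc1 without control replicate 1 or 2 or ferroptotic replicate 2 or 3 (0.0605 to 0.0937). Without trend and robust fitting, Polr3a and Snapc1 also lost their calls (limma adjusted p 0.0558 and 0.0697). Maf1, its repressor, had 1193 ± 78.3 and 1224 ± 69.5 normalized counts (limma adjusted p = 0.724).

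**Figure D4:**
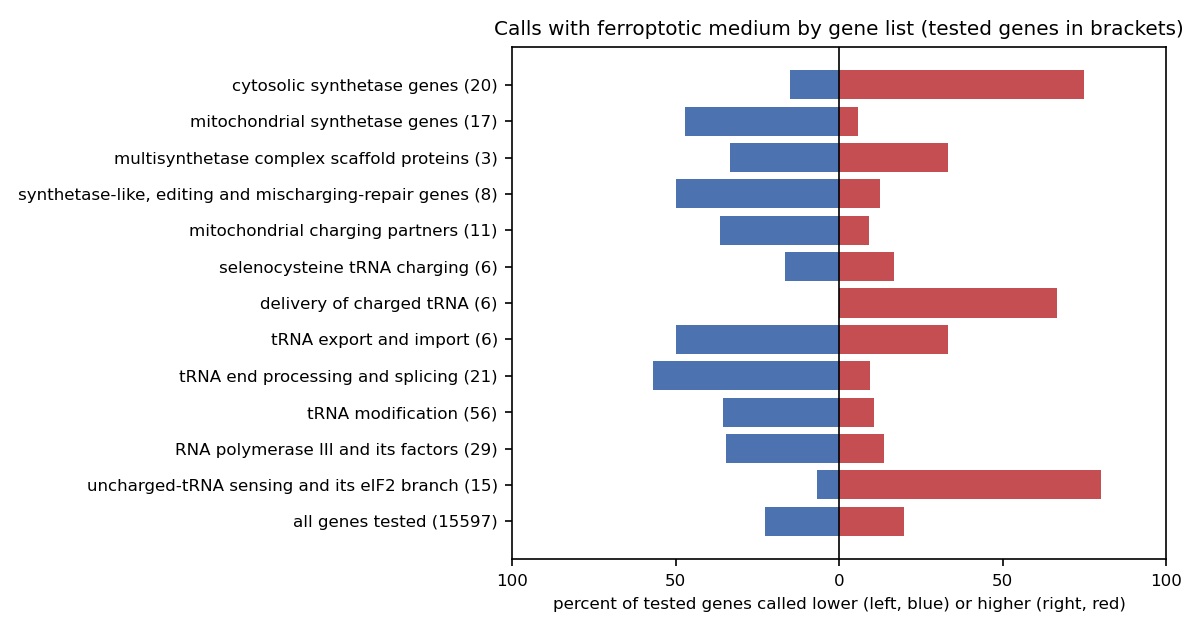
Percent of tested genes called lower (left) or higher (right) with ferroptotic medium in each list, with the number of tested genes in brackets and all 15597 genes at the bottom. The cytosolic synthetases (75.0% higher) and the eIF2 branch (80.0% higher) lie mostly to the right, and the mitochondrial synthetases (47.1% lower) and tRNA processing (57.1% lower) mostly to the left.

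The sensor of uncharged tRNA and genes of the eIF2 branch were examined in the same fit. Charging of tRNA and the activity of GCN2 were not measured. Whether uncharged tRNA had a part in the changes of these genes was not tested. In this list 12 of 15 tested genes rose (80.0%) and 1 fell (6.67%; median 1.46), beside 19.7% higher and 22.8% lower of all genes tested. Chac1 (3.63), Trib3 (2.65), Asns and the transcription factor Cebpb (1.32) had the smallest p-values. This list is known from earlier results of these data to have risen and is given here as context. Eif2ak4, the GCN2 kinase, had 2196, 2256 and 2244 normalized counts and then 2009, 2069 and 2009 (-0.14, SE 0.04; limma adjusted p = 0.0366), and its call was lost whichever of the 6 libraries was left out (0.0565 to 0.107). The call was also lost with the replicate block, with no filter on low values and with quantile normalization (limma adjusted p 0.0646 to 0.158). Gcn1l1, the activator of GCN2, had 10698 ± 575 and 10635 ± 165 (limma adjusted p = 0.91), and Impact, an inhibitor of GCN2 activation, rose by 0.69. Atf4 had 4187, 7336 and 8568 with control and 18842, 19053 and 19255 with ferroptotic medium (1.57, SE 0.30; limma adjusted p = 0.0147). The control libraries of Atf4 spanned more than 2-fold, all stayed below the ferroptotic ones, and the limma adjusted p was 0.0517 to 0.055 with any 1 ferroptotic library left out. Asns, which makes the asparagine that Nars charges, rose from 4844 ± 126 to 14215 ± 965 normalized counts (1.55, SE 0.05).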

How the data were processed

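RNA of 6 microglia samples was sequenced after mRNA library preparation, per the labels' protocols. The submitters' processing notes list HISAT2 2.1.0, fastp 0.17.1, R 3.4.3 and DESeq2 1.18.1. The sources used here do not name the build, annotation, counting tool or strand setting. The authors deposited log2 values per library, which behave as log2(count / size factor + 1): 100% of values undo to whole reads within 0.01. The authors' deposited FPKM values cover 1699 genes, 4 of them members. The authors' deposited p-values and false discovery rates were used only for comparison: 28 members were below 0.05 there, 27 here.

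The test was limma 3.58.1 (R 4.3.3; two-sided, with trend and robust fitting) of the log2 values against medium alone. It covered 15597 genes that reached 10 normalized counts in 3 or more libraries. It was tested on simulated data. Each mean ± SD is taken over the normalized counts of a group's 3 libraries. Replicates differed by more than sampling noise (chi-square per degree of freedom 16.3 to 22.8). Of the gene IDs 26051, and all 37 members, are in GENCODE M21, used for exon lengths and overlaps. Named genes were all members and, of each other list, up to 4 called genes with the smallest p-values and those in counts of 5 or fewer. Maf1, Atf4, Ddit3, Gcn1l1, Impact, S100a8, Csf1r, Exosc6, Naxd, Lyrm4 and Rab3gap2 were otherwise picked by role, overlap or value. So were the markers Flt1, Aldoc, Gfap, Aldh1l1, Mbp and Mag. Members and lists were chosen with earlier results of these data known. No library was left out. For 1 member and 1 list gene, counted in the totals, values are not reported here.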

Additional observations from a re-analysis of the deposited data

How the results depend on the processing

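Of the 27 called synthetase genes, 21 kept their call under all 14 alternatives (limma-voom on whole reads, a replicate block, filters of 1 or none, a pseudocount of 10, quantile or library-total scaling, limma without trend and robust fitting, and leaving out each library), and none changed sign. Limma-voom called 6644 genes in all, against 6629. The count models of edgeR and DESeq2 were not run. The other 6 were Farsb, Hars, Kars, Qars, Lars2 and Vars2. Without trend and robust fitting, 1 cytosolic gene was lower, and 3 transport and 9 end-processing genes passed; with quantile normalization, 2 elongation genes passed, where Eef1a1 took an identical value in every library by construction; the cause of the others was not tested.

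Leaving out each library gave 13 to 15 cytosolic genes higher and 1 to 3 lower (1 without control replicate 3 or ferroptotic replicate 2), 6 to 9 mitochondrial genes lower, and 7 to 12 members lower in all (7 without the same libraries). The mitochondrial median ranged from -0.20 to -0.15. Calls ranged from 3 to 5 for mitochondrial partners and from 7 to 11 for end processing, where main counts were 5 and 14; with fewer samples the test has less power.

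The members that changed sign had not passed. Over the left-out libraries Farsa ranged from -0.0053 (without control replicate 1) to 0.11, Wars2 from -0.15 (control replicate 3; -0.04 without ferroptotic replicate 1) to 0.11, and Nars2 from -0.043 (ferroptotic replicate 2; -0.0083 without control replicate 1) to 0.041. With library-total scaling Wars2 was at -0.0099 and Nars2 at -0.012. Elsewhere, quantile normalization turned Eef2.

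Same-numbered libraries deviated together no more than others (correlations -0.04 to 0.01 against -0.05 to 0.07), so no pairing by number was seen. Whether same-numbered samples shared a culture or a batch cannot be told from these few correlations. With the replicate block 6226 genes passed in place of 6629, with 14 cytosolic genes higher and 3 lower and 1 mitochondrial gene higher and 8 lower; Farsb lost its call (limma adjusted p = 0.0532).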
